A study of Mus musculus with 32 samples.

Results

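Monocytes that enter the emptied ileum settle as macrophages of the lamina propria, and the comparison described here asks how their RNA changed between the day 4 and the day 8 after transfer. The 8 libraries are the 4 of ileal progeny of day 4 and the 4 of ileal progeny of day 8, out of 32 samples in the series. They were chosen by the segment and the day in their sample titles, and all 8 were used. Because the day 4 libraries come from separate transfer experiments, the comparison was repeated with the 2 day 4 libraries of the experiment that was also sampled on day 8.

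The recipients were C57BL/6J BM chimeras with CD11c-DTR marrow (Itgax-DTR/GFP, in which the Itgax promoter drives the receptor for diphtheria toxin) in a wild type host. The toxin removes cells that express Itgax. It was given before the transfer and every other day after it, at day 4 and at day 8 alike, so neither group is an untreated control. Epithelium, stroma and lymphocytes of the host remain. The graft was Ly6C+ BM monocytes of Cx3cr1 GFP/+ donors with the CD45.1 allele, and its progeny were sorted by CD45.1 and GFP according to the study's methods. The sample labels give living CD45+ CD11b+ CD64+ Ly6C- MHCII+ cells as the selection. By their dates the libraries come from 3 transfer experiments. Experiment 1 gave day 4 replicates 3 and 4, experiment 2 gave day 4 replicates 1 and 2 with day 8 replicates 1 and 3, and experiment 3 gave day 8 replicates 2 and 4. Nothing in the labels says whether replicates are separate animals or pools, so the p-values given here measure the spread between these samples, which may be technical.

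Gut macrophages are replaced throughout life from Ly6C+ monocytes. On entry into the tissue a monocyte loses Ly6C and Ccr2, the chemokine receptor that takes it out of the marrow, and gains MHC class II, complement C1q and receptors for dying cells. MHC class II molecules present peptides to CD4 T cells, and the genes for them depend on the coactivator Ciita, which is brought to their promoters by factors bound at the W, X and Y boxes.

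Libraries were made from the 3′ ends of poly(A) RNA, and 591817 to 2770458 reads per library were counted on genes. Levels are given as normalized reads, which are counts per 10000000 mapped reads. A single read is worth 2.13 to 9.22 normalized reads in these libraries and 3 reads, the lowest count read as a level, 6.40 to 27.65. These limits cover counting error only. Replicates differed by more than sampling noise, with a smallest chi-square per degree of freedom of 8.578 for a pair, so none was taken for a repeat of another. Where values of all 8 libraries are given, the order is day 4 of experiment 1 (replicates 3 and 4), day 4 of experiment 2 (1 and 2), day 8 of experiment 2 (1 and 3) and day 8 of experiment 3 (2 and 4).

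The genes of the labelled selection were checked first. H2-Ab1, which encodes the beta chain of the MHC class II molecule I-A, was read at 5263 and 9760, then 13138 and 15683, then 39772 and 23679, then 29318 and 7433 normalized reads. All 8 libraries lay above the graft (547 to 2156), and day 8 replicate 4 stood below 3 of the 4 day 4 libraries. Ly6c2, the gene of the monocyte protein Ly6C that the labels give as absent from these cells, was at 55.5 and 0, then 378 and 1364, then 648 and 244, then 344 and 1173. That is far under the 20738 to 26717 of the graft in every library, but the libraries labelled ileum day 4 of experiment 1 lay below the other 6. Ptprc (CD45) was read in all 8 libraries, from 252 to 1683 normalized reads, as was Fcgr1 (CD64), from 133 to 914. Levels of Itgam (CD11b) are not given. All 8 listed sort marker genes had lower estimates in the libraries labelled ileum day 4 of experiment 1 than in day 4 of experiment 2. Their median log2 difference was -1.31, and 2 passed an edgeR adjusted p under 0.05 (3.86% of all genes were lower and passed). Reads of Ly6c2 and its near copy Ly6c1 can be split between them, and Ly6c1 is also made by endothelium, so the level of either is uncertain.

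Markers of the gut segment went against the label in 2 libraries. Summed over 11 genes of colonic enterocytes, the libraries labelled ileum day 4 of experiment 1 held 64966 and 80733 normalized reads. The other 6 ileal libraries held 2933 to 8159, the colonic libraries of day 4 held 36444 to 44264, and ileal libraries of day 12 held 4115 to 8896. Summed over 13 genes of Paneth cells, which line the crypts of the small intestine, the same 2 libraries held 4673 and 11032, against 48502 to 464570 in the other 6 and 2588 to 4349 in colonic day 4 libraries. For both sets of genes they therefore stood nearer the colonic libraries than the other ileal ones. The sorted monocyte graft held 20645 to 33136 over the Paneth cell genes, so that sum is not particular to Paneth cells. They are called the libraries labelled ileum day 4 of experiment 1 below, and the main results are given with and without them. Segment markers and experiment cannot be told apart on day 4. On day 12 the ileal library of experiment 1 held 8896 over the colonic enterocyte genes and 355524 over the Paneth cell genes.

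**Figure D1:**
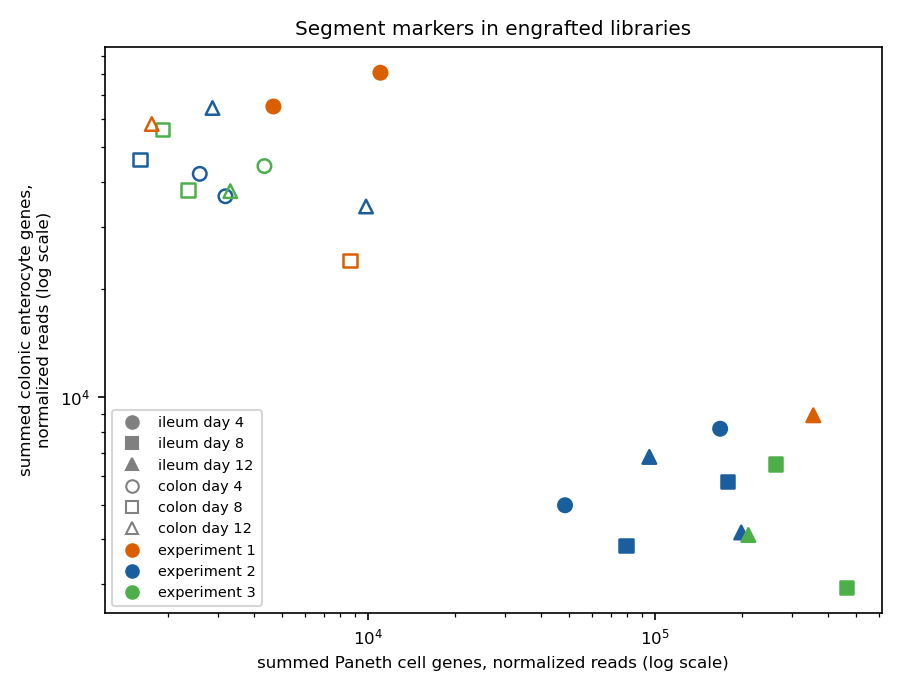
Summed normalized reads of 13 Paneth cell genes (horizontal, log scale) against 11 colonic enterocyte genes (vertical, log scale) for each engrafted library, with symbols for segment and day and colours for experiment. The 2 filled orange circles, labelled ileum day 4 of experiment 1, sit at 64966 and 80733 on the vertical axis. The open colonic symbols sit below them at 24068.5 to 64347, and the other 6 ileal libraries of days 4 and 8 sit at 2933 to 8159.

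Reads of marker genes of other cell types were found in all of the libraries, although a sort on CD45.1 and GFP would leave such cells out, and their level differed between the experiments of day 4. Whether they came from cells, free RNA or engulfed material was not tested. Over 18 genes of intestinal epithelium the libraries labelled ileum day 4 of experiment 1 held 184090 and 177550 normalized reads and the other 6 libraries 38373 to 71470. Over 11 endothelial genes they held 677 and 866, against 7028 to 18155 in the others. Over 11 genes of B and plasma cells they held 8452 and 5170, against 18948 to 143440, mostly of the antibody joining chain Jchain. Macrophage genes (25 listed) summed to 18612 and 54034 in these libraries, to 50789 and 61781 in the day 4 libraries of experiment 2, to 133530 and 96097 in the day 8 libraries of experiment 2, and to 145580 and 43711 in those of experiment 3. Day 8 replicate 4 had the lowest macrophage sum of day 8 and, at 464570, the highest Paneth cell sum of all 8. In RNA of a whole sorted sample, fewer cells of a type and less RNA per cell cannot be told apart.

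**Figure D2:**
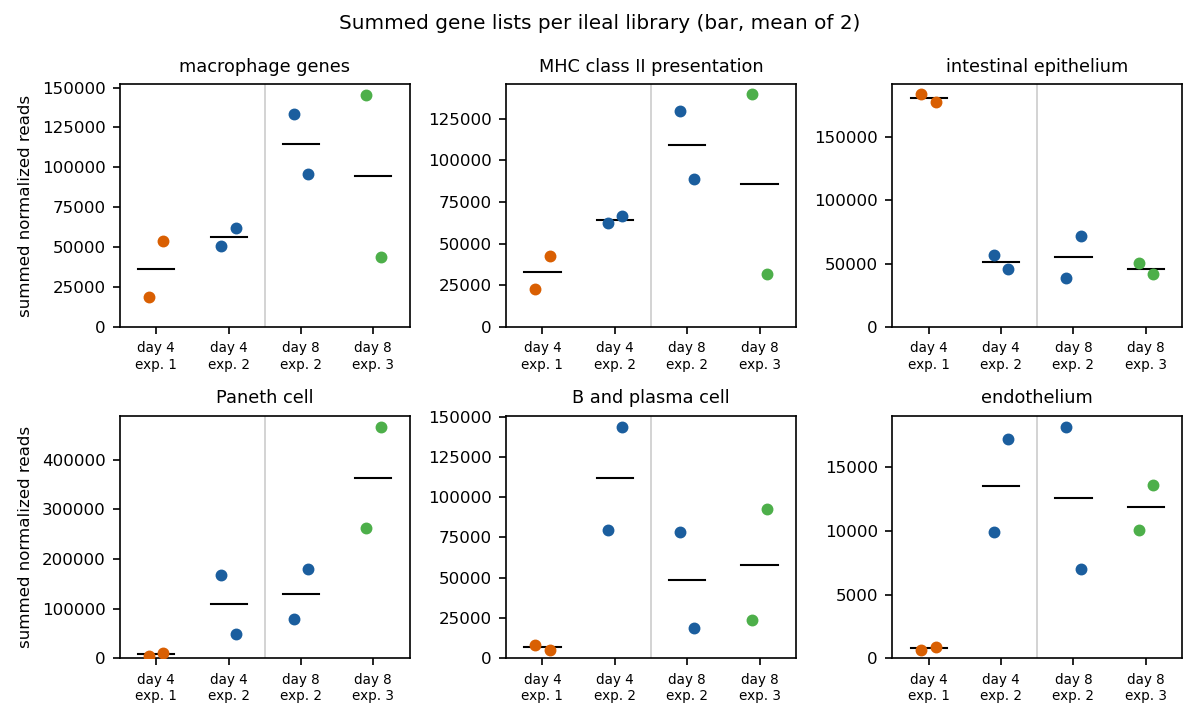
Summed normalized reads of 6 gene lists in each of the 8 ileal libraries, by day and experiment. Points are libraries, bars are means of 2 libraries. The libraries labelled ileum day 4 of experiment 1 are the 2 highest for intestinal epithelium (184090 and 177550) and the 2 lowest for Paneth cell, B and plasma cell and endothelial genes, and day 8 replicate 4 lies at 43711 for macrophage genes.

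Between all 4 day 4 and all 4 day 8 libraries, no gene passed an adjusted p under 0.05 in edgeR (0 of 11099, 0%; smallest adjusted p 0.294). At an unadjusted p under 0.05 there were 1270 genes (11.4%), 437 higher on day 8 (3.94%) and 833 lower (7.51%). Among genes that separated the libraries without overlap (545, 4.91%), 110 were higher on day 8 (0.991%) and 435 lower (3.92%). Other fits of the same libraries did call genes. A single edgeR fit of 7 groups and 25 libraries called 612 of 12113 (5.05%), of which 85 rose (0.702%) and 527 fell (4.35%). That fit shares its estimate of spread over all groups. Its common coefficient of variation was 0.337, against 0.441 in the 8 libraries alone. It can therefore understate the spread of the day 4 libraries, a limit on each adjusted p quoted from it below. DESeq2 called 178 (1.61%), of which 19 rose (0.171%) and 159 fell (1.43%). Without day 4 replicate 2, edgeR called 89 genes (0.81%), of which 1 rose (0.0091%) and 88 fell (0.801%). With all 8 libraries limma on log2 values called 0 (1209 at an unadjusted p under 0.05).

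With the 2 day 4 libraries of experiment 2 against the 4 of day 8, edgeR again called 0 of 10767 genes (0%), and 414 had an unadjusted p under 0.05 (3.85%), 192 higher (1.78%) and 222 lower on day 8 (2.06%). Of its genes 1729 (16.1%) did not overlap between the 2 and the 4 libraries, 356 higher on day 8 (3.31%) and 1373 lower (12.8%). DESeq2 called 0 (411 at an unadjusted p under 0.05), as did limma (503). A single edgeR fit of 25 libraries with day 4 of experiment 1 as a group of its own, 8 groups in all, also called 0 of 12113. Its smallest adjusted p was 0.635, and 925 genes had an unadjusted p under 0.05. Within experiment 2, where both days were run and the experiment enters the model, edgeR called 0 of 11099 (0%), with 153 at an unadjusted p under 0.05 (1.38%), 75 higher (0.676%) and 78 lower (0.703%), DESeq2 called 0 (133) and limma called 0 (150). Fitted alone, the 4 libraries of experiment 2 gave 0 calls and 630 genes at an unadjusted p under 0.05. Changes between day 4 and day 8 were therefore not separable from the spread between replicates in these fits. In simulated counts with 200 genes changed, 0 of 67 genes with a log2 change of 1 were recovered with all libraries. With day 4 of experiment 2 it was 4 of 67 and within experiment 2 it was 0 of 67. For a log2 change of 2 it was 42, 48 and 23 of 67. Changes of such size can thus go uncalled. The fold changes that follow are estimates with their standard errors, not calls.

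On day 4 itself, 851 of 11099 genes (7.67%) differed between the experiments in edgeR, 423 higher (3.81%) and 428 lower (3.86%) in the libraries labelled ileum day 4 of experiment 1. At an unadjusted p under 0.05 there were 2375 (21.4%), 1160 higher (10.5%) and 1215 lower (10.9%). Scaled to mapped reads alone the split was 265 and 414. Higher genes included 13 of 18 of intestinal epithelium, 6 of 11 of colonic enterocytes and 5 of 11 of goblet cells, and lower genes 10 of 13 of Paneth cells, 10 of 11 of endothelium, 5 of 8 of B and plasma cells and 5 of 17 of small intestinal enterocytes. Leaving out day 4 replicate 1, 2, 3 or 4 gave 257, 0, 132 and 259 calls in edgeR (1301 at an unadjusted p under 0.05 without replicate 2). Each of these fits leaves 1 library on a side, which is assumed to vary like the other groups. On day 8, experiment 3 against experiment 2 gave 0 calls of 11099 (0%; 432 at an unadjusted p under 0.05, 3.89%, of which 201 were higher, 1.81%, and 231 lower, 2.08%; DESeq2 0 with 341, limma 0 with 334).

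Mettl7b, a methyltransferase-like gene on the colonic list, was at 1215 and 2488 normalized reads in the libraries labelled experiment 1 and 64.2 and 42.9 in experiment 2 (log2 difference 5.25 ± 0.55 SE, edgeR adjusted p = 0.00456). Day 8 libraries lay at 34.0 to 60.2, beside the day 4 libraries of experiment 2. Kdr, a receptor for VEGF on endothelium, was at 25.6 and 18.4 against 407 and 924 (-4.81 ± 0.63, adjusted p = 0.00622). The alpha-defensin gene Defa22 was at 173 and 433 against 20149 and 2595 (-5.09 ± 1.13, adjusted p = 0.0215), although reads of the near-identical defensin genes can be shared between them. Mettl7b and Defa22 are named by the rule given in the methods and Kdr was chosen after its values were seen.

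MHC class II genes had a median above 0 in each of the 3 comparisons, without a call. Of 12 listed genes 10 were tested (9 with day 4 of experiment 2), and the median log2 fold change was 0.88 with all libraries, 0.51 with day 4 of experiment 2 and 0.51 within experiment 2, against medians over all genes of 0.03, 0.04 and 0.01. None passed, 2 were higher at an unadjusted p under 0.05 with all libraries (3.94% of all genes) and none were in the repeats. Dendritic cells also carry MHC class II. Of 12 of their markers 5 were tested, with medians of 0.82, 0.41 and 0.44 and sums of 882 and 1336, then 2090 and 1935, then 2608 and 2078, then 5188 and 982 normalized reads, mostly of Irf8, which macrophages also express. Batf3, Siglech and Dpp4 were also tested and reached a mean of at least 50 normalized reads on 1 day or both. With all libraries their unadjusted p in edgeR was 0.087, 0.095 and 0.139. The markers Zbtb46, Xcr1, Clec9a and Flt3 lay at 0 to 33.7 in every library and Cd209a at 0. The part of such cells in the class II values was not tested. H2-Eb1, the beta chain of I-E, was read at 3215 and 5861, then 8466 and 9489, then 19416 and 15732, then 31088 and 5774 normalized reads. It lay above every day 4 library in 3 of the 4 day 8 libraries, and the remaining one, replicate 4, lay among those of day 4 (1.46 ± 0.50 on the log2 scale, edgeR adjusted p = 0.346). In the repeats its log2 fold change was 1.07 ± 0.58 and 1.06 ± 0.64. H2-Ab1 followed the same order (1.25 ± 0.52, adjusted p = 0.409), with 0.88 ± 0.62 and 1.23 ± 0.65 in the repeats.

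The alpha chain gene H2-Aa (0.88 ± 0.51), the invariant chain gene Cd74 (1.10 ± 0.51) and H2-DMa, part of the complex that loads peptide (1.08 ± 0.51), had estimates of like size and adjusted p of 0.547, 0.445 and 0.455 in edgeR. In the repeats the estimates were 0.51 ± 0.58 and 0.77 ± 0.65 for H2-Aa, 0.65 ± 0.56 and 0.69 ± 0.63 for Cd74 and 0.52 ± 0.48 and 0.34 ± 0.56 for H2-DMa. Ciita, the coactivator of the class II genes, was at 205 and 101, then 699 and 740, then 802 and 338, then 890 and 187. It was lower in the libraries labelled ileum day 4 of experiment 1 than in those of experiment 2 (-2.12 ± 0.59, adjusted p = 0.0491) and its estimate from day 4 to day 8 was 0.42 ± 0.58 with all libraries and -0.30 ± 0.45 without them. H2-Oa and H2-DMb2, the members not tested, stayed at 0 to 57.3 normalized reads.

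The Y box of class II promoters was looked up because these genes share it in textbook accounts of their control. Of the 12 genes, 9 have an entry among the RefSeq promoters (GRCm38.p6). H2-Ab1 and Cd74 are among those without an entry and were not searched. The letters CTGATTGG, which hold the inverted CCAAT of the Y box, were searched on both strands of the 250 bases before each start site. H2-Aa, H2-Eb1, H2-Eb2 and H2-Oa hold them, 4 of 9, and so do 1258 of all 32851 promoters (3.829%). In H2-Aa (chr17:34287824-34288073, minus strand) the letters end 43 bases before the start site and in H2-Eb1 (chr17:34305617-34305866, plus strand) 54 bases before it. The capitals mark the match.
H2-Aa: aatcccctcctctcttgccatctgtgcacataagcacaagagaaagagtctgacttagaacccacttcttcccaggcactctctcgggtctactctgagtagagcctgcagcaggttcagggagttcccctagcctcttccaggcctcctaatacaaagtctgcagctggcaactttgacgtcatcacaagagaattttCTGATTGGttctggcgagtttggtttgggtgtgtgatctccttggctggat
H2-Eb1: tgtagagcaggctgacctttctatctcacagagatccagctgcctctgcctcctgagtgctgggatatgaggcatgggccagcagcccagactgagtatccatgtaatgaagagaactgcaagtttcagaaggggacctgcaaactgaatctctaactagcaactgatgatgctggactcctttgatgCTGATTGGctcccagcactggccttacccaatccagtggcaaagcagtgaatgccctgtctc
H2-Eb2 and H2-Oa hold the same letters and were read at 0 to 59.6 normalized reads.

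**Figure D3:**
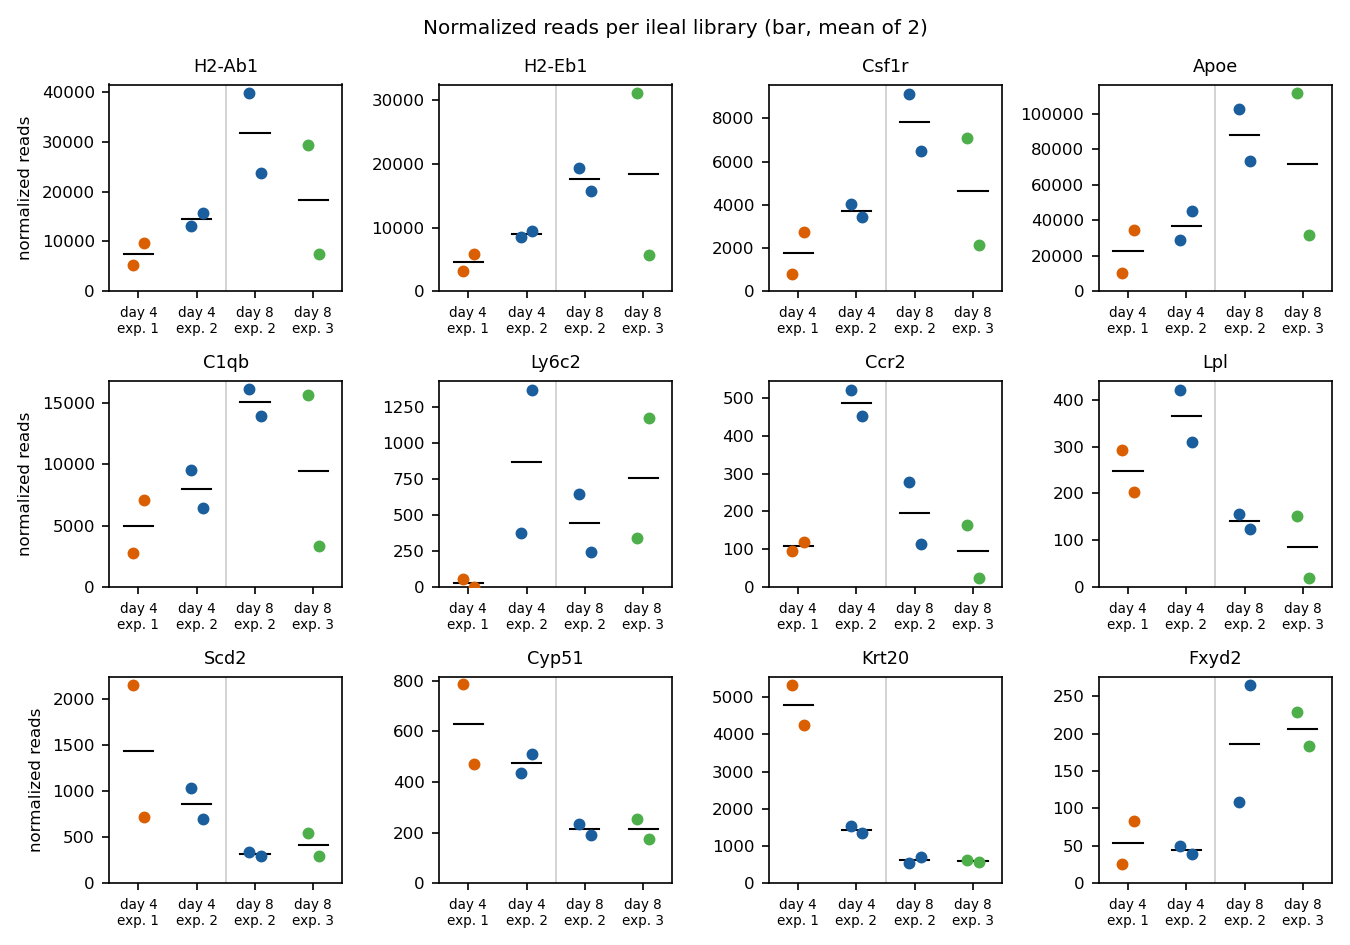
Normalized reads of 12 genes in each of the 8 ileal libraries, by day and experiment, on linear axes from 0. Points are libraries, bars are means of 2. H2-Ab1, H2-Eb1, Csf1r, Apoe and C1qb are high in 3 day 8 libraries and low in day 8 replicate 4 (7433 normalized reads for H2-Ab1), while Lpl, Cyp51 and Krt20 are lower in all 4 day 8 libraries than in any day 4 library.

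Macrophage genes varied with the same libraries. Of 25 listed genes 22 were tested, 0 passed and 4 were higher on day 8 at an unadjusted p under 0.05 (3.94% of all genes), namely Apoe, Axl, Csf1r and Lyz2. The median log2 fold change was 0.20, 0.09 and 0.26 in the 3 comparisons, and scaled to mapped reads alone it turned to -0.05 in the repeat without experiment 1. Csf1r, the receptor for CSF1 on which gut macrophages depend, was at 803 and 2728, then 4023 and 3417, then 9147 and 6472, then 7096 and 2158 normalized reads. The 3 higher day 8 libraries exceeded all day 4 libraries and replicate 4 fell among them (1.25 ± 0.51, edgeR adjusted p = 0.4; 0.84 ± 0.48 and 1.17 ± 0.61 in the repeats). Apoe, the lipid carrier, ran from 10427 to 44982 on day 4 and from 31537 to 111430 on day 8 (1.46 ± 0.59, adjusted p = 0.398, then 1.18 ± 0.72 and 1.33 ± 0.80). Axl, a receptor for dying cells, was at 250 and 304, then 471 and 479, then 732 and 462, then 691 and 608 (0.89 ± 0.31, adjusted p = 0.352, then 0.56 ± 0.33 and 0.43 ± 0.39). Genes for the uptake of dying cells had medians of 0.56, 0.45 and 0.31 over 14, none of which passed. Markers of long resident macrophages were low throughout, with Timd4 at 6.8 to 46.1, Mertk at 12.8 to 40.5 and Cd163 at 34.0 to 369 normalized reads.

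Complement genes had a median log2 fold change of 0.58 over 14 tested, and 0.40 and 0.60 in the repeats, with 0 passing. Cfb, factor B of the alternative pathway, was at 734 and 396, then 706 and 449, then 1307 and 1188, then 1780 and 316 normalized reads. It exceeded all day 4 libraries in every day 8 library except replicate 4, which lay below them all (1.07 ± 0.39, edgeR adjusted p = 0.356, and 1.09 ± 0.47 and 1.23 ± 0.54 in the repeats). C1qb, a chain of C1q, ran from 2801 to 9522 on day 4 and from 3324 to 16135 on day 8 (0.97 ± 0.50, adjusted p = 0.498, then 0.72 ± 0.56 and 1.03 ± 0.65). Cd55, which protects cells from complement, did separate the days, at 303 and 129, then 85.6 and 89.1, then 67.8 and 70.3, then 60.7 and 64.6, but its estimate of -1.07 ± 0.45 became -0.24 ± 0.47 without the libraries labelled ileum day 4 of experiment 1.

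Genes of the monocyte state were already low on day 4. Over 20 listed genes the median log2 fold change of the 16 tested was 0.31 with all libraries and -0.28 and -0.16 in the repeats, so its sign depended on the libraries of experiment 1. Ccr2 was at 96.1 and 120, then 521 and 452, then 277 and 114, then 165 and 23.8 normalized reads, against 4611 to 6535 in the graft. Within experiment 2 both day 4 libraries stood above both of day 8, while those labelled ileum day 4 of experiment 1 were as low as day 8. Its log2 fold change was -0.95 ± 0.63 with all libraries (edgeR adjusted p = 0.601), -1.64 ± 0.52 with day 4 of experiment 2 (adjusted p = 0.967) and -1.21 ± 0.59 within experiment 2. For Ly6c2 the estimates were 0.67 ± 1.04, -0.29 ± 0.67 and -0.92 ± 0.84. With all libraries its estimate ran from -0.13 without day 8 replicate 4 to 2.42 when single libraries were left out. Without day 4 replicate 2 the estimates of the repeats were 1.04 and 0.40. Fn1, the fibronectin gene that monocytes express, behaved as Ccr2 did (-0.47 ± 0.56, -1.15 ± 0.46 and -0.98 ± 0.58). S100a6, a calcium-binding protein on the monocyte list that epithelium also makes, was at 25679 and 20810 in the libraries labelled ileum day 4 of experiment 1, at 1961 to 3894 in the other 6 and at 27031 to 30666 in colonic day 4 libraries.

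Chemokine and homing receptors had lower estimates on day 8. Their median was -0.76 over 12 genes with day 4 of experiment 2, -0.53 within experiment 2 and -0.26 with all libraries, with 0 passing in each. Cxcr6 was at 8.54 and 18.4, then 78.5 and 139, then 46.1 and 16.7, then 13.5 and 0 normalized reads. Its day 8 values other than the 46.1 of replicate 1 were within a few reads of the limit of counting (-2.37 ± 0.77 in the repeat, edgeR adjusted p = 0.967). The integrin gene Itga4 was lower in all 4 day 8 libraries (74.8 to 280) than in both day 4 libraries of experiment 2 (307 and 406), with -0.93 ± 0.45. Genes of T cells and innate lymphoid cells, which share several of these receptors, summed to 265 and 184, then 1155 and 1859, then 1434 and 612, then 681 and 785 normalized reads, and the part of such cells in the receptor values was not tested. Cxcr4 was at 96.1 to 179 normalized reads in 7 libraries and at 1511 in day 4 replicate 4.

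Lipid genes moved in both directions by estimate. The list of 27 had 25 tested genes with 0 passing, 3 higher and 6 lower at an unadjusted p under 0.05 (3.94% and 7.51% of all genes), and medians of -0.25 with all libraries and 0.22 and 0.20 in the repeats. In the fit of 7 groups 1 of them rose and 5 fell (0.702% and 4.35% of all genes). Scd2, a desaturase of fatty acids, was at 2150 and 719, then 1034 and 697, then 342 and 301, then 546 and 292 normalized reads, without overlap of the days (-1.49 ± 0.38, edgeR adjusted p = 0.294, or 0.021 in the fit of 7 groups and 0.02 in DESeq2). It kept -1.06 ± 0.31 with day 4 of experiment 2 and -1.31 ± 0.46 within experiment 2. Lpl, which releases fatty acids from lipoproteins, was at 292 and 203, then 421 and 310, then 157 and 124, then 152 and 20.4. Its days did not overlap either, with -1.36 ± 0.43 (adjusted p = 0.322, or 0.0389 in the fit of 7 groups), -1.57 ± 0.47 and -1.26 ± 0.55.

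Genes of sterol synthesis had estimates of like size in the 3 comparisons. Cyp51, the lanosterol demethylase, was at 786 and 470, then 435 and 512, then 236 and 191, then 253 and 177 normalized reads, so that every day 8 library lay below every day 4 library (-1.23 ± 0.28, edgeR adjusted p = 0.294, or 0.00962 in the fit of 7 groups and 0.0088 in DESeq2). Its estimates in the repeats were -1.001 ± 0.30 and -1.06 ± 0.38. Lss, which makes lanosterol, was at 248 and 221, then 136 and 218, then 67.8 and 50.2, then 94.4 and 51.0, again without overlap (-1.53 ± 0.34, then -1.32 ± 0.42 and -1.51 ± 0.49). Sqle, the squalene epoxidase, was at 472 and 120, then 207 and 320, then 78.6 and 53.5, then 148 and 136, where day 4 replicate 4 overlapped day 8 (-1.27 ± 0.46, then -1.19 ± 0.46 and -1.92 ± 0.58). Insig1, which restrains SREBP processing when sterols are plentiful, had -0.26 ± 0.58 with all libraries. Hmgcs1 is listed at 0 in every library. Cyp51 and Lss are on no list and, with Sqle, were chosen after their values were seen. In colonic day 4 libraries, where the epithelial sum was 195670 to 220790, Cyp51 was at 425 to 1061 and Lss at 230 to 448. Epithelial sums within experiment 2 were 56937 and 46019 on day 4 and 38373 and 71470 on day 8, and the part of epithelium in the sterol values was not tested.

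Pparg, a lipid sensor that epithelium of the colon also expresses, was at 602 and 544, then 178 and 99.0, then 48.8 and 117, then 115 and 37.4 normalized reads. Its estimate of -2.08 ± 0.58 (edgeR adjusted p = 0.294, or 0.0101 in the fit of 7 groups) became -0.64 ± 0.50 and -0.60 ± 0.53 in the repeats, and on day 4 it was higher in the libraries labelled experiment 1 (2.17 ± 0.52, adjusted p = 0.0291). Cd36, a scavenger receptor that endothelium also makes, had 1.67 ± 0.56, then 1.30 ± 0.60 and 1.23 ± 0.75, at 18.4 to 107 normalized reads on day 4 and 80.9 to 302 on day 8. Nr1h2 (LXR beta) was at 416 to 592 on day 4 and 646 to 773 on day 8 (0.75 ± 0.26, adjusted p = 0.341, or 0.0329 in the fit of 7 groups; 0.64 ± 0.31 and 0.56 ± 0.36 in the repeats).

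Of the 9 tested genes of the IL-10 axis 1 separated the days, against 4.91% of all genes, 0.991% being higher on day 8. Socs3, the feedback inhibitor that IL-10 induces through STAT3, was at 382 and 535, then 506 and 641, then 1106 and 703, then 1278 and 717 normalized reads. All 4 day 8 libraries exceeded all 4 day 4 libraries (0.99 ± 0.30, edgeR adjusted p = 0.304, or 0.0377 in the fit of 7 groups; 0.85 ± 0.34 and 0.74 ± 0.41 in the repeats). Nfil3, another target of IL-10, had 0.79 ± 0.35, then 1.08 ± 0.44 and 1.32 ± 0.50, with day 8 replicate 4 at 68.0, below all day 4 libraries. Il10ra, the ligand-binding chain of the receptor, ran from 109 to 1106 on day 4 and from 245 to 1463 on day 8 (0.50 ± 0.68, adjusted p = 0.81, then 1.17 ± 0.54 and 0.60 ± 0.85), and Il10 itself stayed at 0 to 51.5. Over the 9 tested genes the medians were 0.25, -0.06 and 0.24. Tgfb1, an activator of the TGF-beta pathway, had 1.22 ± 0.46, 1.06 ± 0.44 and 1.18 ± 0.64, whereas the median of the 20 tested genes of that pathway was 0.25, 0.09 and 0.10, and scaled to mapped reads alone the second of these turned to -0.06.

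Inflammatory genes and interferon targets had no call. Il1b was at 2210 and 2378, then 3245 and 2248, then 5734 and 2838, then 2286 and 1292 normalized reads (0.37 ± 0.39, edgeR adjusted p = 0.754, then 0.27 ± 0.47 and 0.75 ± 0.44), Tnf ran from 57.8 to 516 over the 8 libraries and Il6 from 3.37 to 56.9. Il18, which gut epithelium makes in abundance, was lower on day 8 without overlap, at 1860 and 590, then 556 and 284, then 228 and 201, then 202 and 20.4 (-2.26 ± 0.63, adjusted p = 0.294, or 0.0152 in the fit of 7 groups), with -1.24 ± 0.54 and -0.83 ± 0.66 in the repeats. Of 26 interferon-stimulated genes tested, 20 had a lower estimate on day 8 in each repeat, counted separately, with medians of -0.34 and -0.26. With day 4 of experiment 2, 6 were lower at an unadjusted p under 0.05 (2.06% of all genes), Irgm1 among them (-1.37 ± 0.42, adjusted p = 0.967). With all libraries the median was -0.04, and 7 of the 26 were lower in the libraries labelled ileum day 4 of experiment 1 than in those of experiment 2 (3.86% of all genes).

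Immediate early genes, which also respond to the handling of tissue, had a median whose sign changed with the libraries used. Their median was -0.39 with all libraries, 0.26 with day 4 of experiment 2 and 0.54 within experiment 2, and 5 of 22 were higher in the libraries labelled ileum day 4 of experiment 1 (3.81% of all genes). Klf4 depended on these libraries in size but not in sign, at 10651 and 6838, then 2924 and 2252, then 1757 and 1392, then 1733 and 1091 normalized reads. It separated the days (-1.81 ± 0.48, edgeR adjusted p = 0.294), but the estimate was -0.64 ± 0.31 without experiment 1. Of the 32 tested genes of proliferation, none passed in any of the 3 comparisons and the medians were 0.02 (-0.11 scaled to mapped reads alone), -0.31 and -0.41. Clustered histone genes had medians of 0.68, 0.51 and 0.16 over 58, 56 and 58 genes, with 9 of 58 higher at an unadjusted p under 0.05 with all libraries (3.94% of all genes). The linker histone gene Hist1h1e was at 181 and 194, then 349 and 261, then 301 and 502, then 732 and 880, where both libraries of experiment 3 were the highest (1.52 ± 0.42, adjusted p = 0.294; 1.23 ± 0.49 and 0.51 ± 0.43). Reads of histone genes of near-identical sequence can be shared between them. Ribosomal protein genes had medians of 0.43, 0.51 and 0.41 over 82, and subunits of oxidative phosphorylation of -0.36, 0.21 and 0.07 (the last -0.04 scaled to mapped reads alone).

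**Figure D4:**
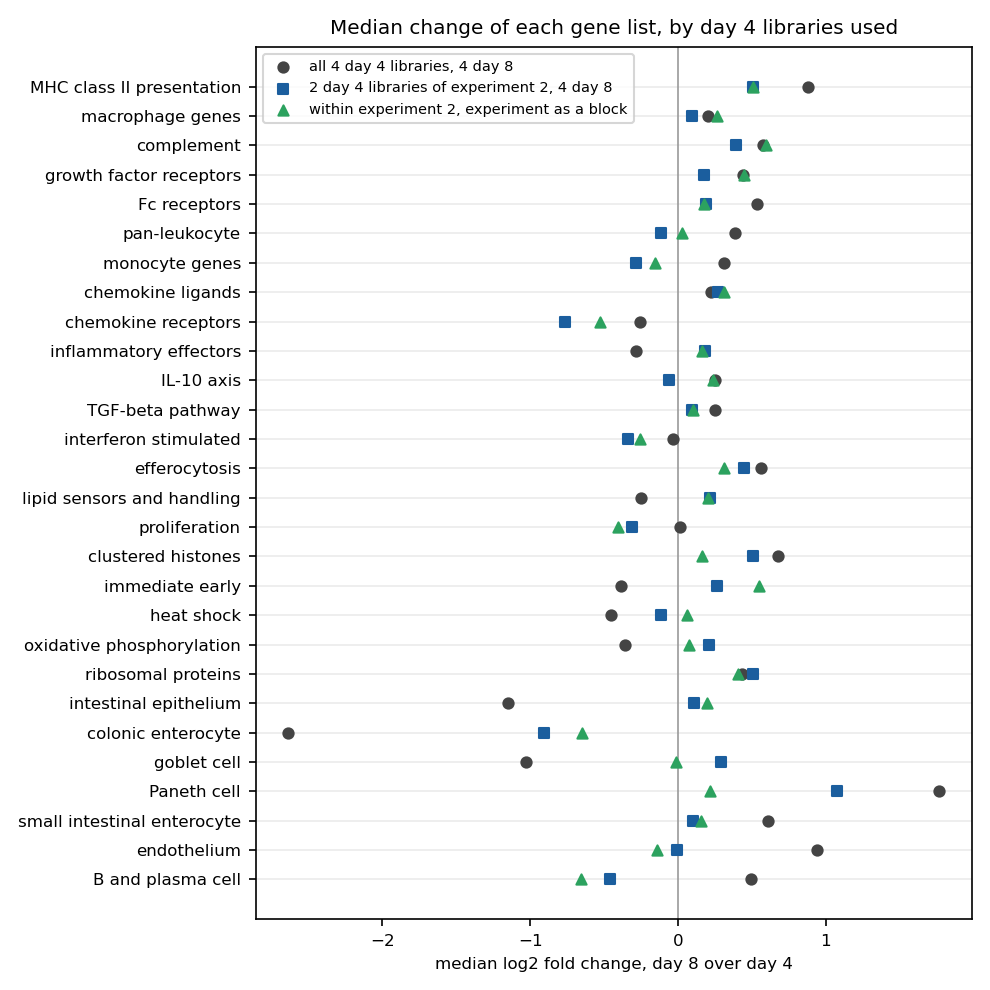
Median log2 fold change (day 8 over day 4) over the tested members of each gene list named on the vertical axis, with all libraries (dark grey circles), with the 2 day 4 libraries of experiment 2 (blue squares) and within experiment 2 (green triangles). In that order, colonic enterocyte genes move from -2.64 to -0.91 and -0.65, epithelial genes from -1.15 to 0.11 and 0.19, and MHC class II genes from 0.88 to 0.51 and 0.51. The libraries labelled ileum day 4 of experiment 1 are left out of the blue squares. They stay in the fit of the green triangles, where the experiment enters the model.

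Genes of epithelial cells had large estimates. The median of 18 epithelial genes was -1.15 with all libraries, 8 lower at an unadjusted p under 0.05 (7.51% of all genes), and 0.11 and 0.19 in the repeats, where scaling to mapped reads alone turned the former to -0.05. For the 11 colonic enterocyte genes it was -2.64, then -0.91 and -0.65. At an unadjusted p under 0.05, 10 were lower at first and 2 and 0 in the repeats (7.51%, 2.06% and 0.703% of all genes). Car1, a carbonic anhydrase of the colon, was at 17929 and 15419, then 1455 and 680, then 461 and 686, then 694 and 23.8 normalized reads (-4.25 ± 1.1, edgeR adjusted p = 0.294; -1.10 ± 0.68 and -0.76 ± 0.84). Krt20, a keratin of mature enterocytes, kept part of its difference within experiment 2, at 5312 and 4239, then 1526 and 1344, then 539 and 706, then 620 and 578 (-2.21 ± 0.48, adjusted p = 0.294; -1.05 ± 0.30 and -1.10 ± 0.38). Retnlb, a goblet cell product, was at 3010 and 2829, then 364 and 175, then 65.1 and 30.12, then 175 and 23.8 (-4.41 ± 0.94, adjusted p = 0.294; -1.74 ± 0.58 and -2.32 ± 0.64). Paneth cell genes went the other way, with medians of 1.77, 1.07 and 0.21 over 13.

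Of 24 gut patterning factors tested, 4 were higher (3.81% of all genes) and 2 lower (3.86%) in the libraries labelled ileum day 4 of experiment 1. Foxd2, a forkhead factor, was at 476 and 544 normalized reads in the libraries labelled ileum day 4 of experiment 1, at 10.2 to 49.9 in the other 6 and at 291 to 588 in colonic day 4 libraries. Foxd2 had -3.09 ± 0.85 with all libraries (edgeR adjusted p = 0.294) and -0.01 ± 0.59 within experiment 2. Hoxb13, which is used in the hind end of the body, was at 2978 and 912 in those libraries and at 0 to 485 in the other 6.

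Of genes on no list, Fxyd2, Clec1b and Avpi1 had higher estimates on day 8 in all 3 comparisons and were chosen after their values were seen. The comparisons share the libraries of experiment 2, so their agreement is not replication. Fxyd2, a small regulator of the sodium pump, was at 25.6 and 82.9, then 49.9 and 39.6, then 108 and 264, then 229 and 184 normalized reads. The days did not overlap (2.23 ± 0.47, edgeR adjusted p = 0.294, or 0.0888 in the fit of 7 groups and 0.00595 in DESeq2), and the repeats gave 2.31 ± 0.50 and 2.16 ± 0.67. Clec1b, the lectin receptor CLEC-2, was at 8.54 and 82.9, then 49.9 and 95.7, then 282 and 258, then 233 and 218, and at 226 to 561 in ileal libraries of day 12 (2.25 ± 0.57, adjusted p = 0.294, or 0.0312 in the fit of 7 groups; 1.84 ± 0.41 and 1.90 ± 0.72). Here the 4 day 8 libraries were close together, day 8 replicate 4 included. Avpi1 was at 120 and 221, then 92.7 and 106, then 236 and 318, then 324 and 224 (1.18 ± 0.35, adjusted p = 0.304; 1.60 ± 0.36 and 1.55 ± 0.47).

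Whether the change from day 4 to day 8 differed between ileum and colon was tested as an interaction in the fit of 25 libraries, which leaves out the colon day 8 library of experiment 1. Its macrophage genes summed to 249810 normalized reads, against 14687 to 50163 in the other colonic libraries of day 8. No gene passed (0 of 12113, 0%; 1498 at an unadjusted p under 0.05, 12.4%, with 452 above 0, 3.73%, and 1046 below, 8.64%; smallest adjusted p 0.144 in edgeR), and from day 4 to day 8 the colon itself had 0 calls with 213 at an unadjusted p under 0.05. Without the libraries labelled ileum day 4 of experiment 1 the interaction gave 0 calls and 787 at an unadjusted p under 0.05. Leaving out 1 of the day 4 libraries of experiment 2 instead gave 123 calls (replicate 1) or 254 (replicate 2). For H2-Ab1 the difference of the log2 fold changes was 0.29 ± 0.92, but -0.049 without the libraries labelled ileum day 4 of experiment 1 and -1.34 with the colon day 8 library of experiment 1. For Cyp51 it was -1.36 ± 0.38 (edgeR adjusted p = 0.158) and for Krt20 -3.03 ± 0.60 (adjusted p = 0.144).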

How the data were processed

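Read counts per gene were deposited by the authors, who aligned uniquely mapping reads to mm9 with HISAT 0.1.6 and counted sense-strand exons with HOMER, taking 1 transcript per gene. Whether reads were collapsed by molecular identifier, and the versions of HOMER and bcl2fastq, are not given in the sources used here. Reads cover the 3′ end, and between 47.1 and 64.6% of mapped reads fell on genes. Counts of 24411 genes in 26 libraries were read.

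Libraries were grouped by segment, day and date. The date on day 8 replicate 2 (8.1.14) was read as a slip for the following year. A gene was tested if 2 or more of the fitted libraries reached 50 normalized reads, with edgeR 4.0.16 (quasi-likelihood, TMM scaling, Benjamini-Hochberg adjustment over all genes tested) in R 4.3.3. The comparisons were all 4 day 4 against all 4 day 8 libraries, and the 2 day 4 libraries of experiment 2 against day 8. The last was day within experiment 2 in a model of experiment and day fitted to all 8 libraries. All of them use the libraries of experiment 2, so the repeats are not independent of the first. Standard errors were taken from the estimate and its F statistic. DESeq2 1.42.0, limma 3.58.1 on log2(normalized reads + 50), other scalings and filters, fits of more groups and the leaving out of single libraries were alternatives. 1 colon library of day 8, from experiment 1, was left out of the fits of 25 libraries. The script was tested on simulated counts.

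The named genes are H2-Ab1, Ly6c2, the 10 with the largest rise and fall that passed with a mean of at least 200 normalized reads and no overlap (none did), and up to 4 members of each gene list with the smallest p with all libraries and a mean of at least 50. Other genes were chosen after their values were seen. The members, lists and tests were chosen with earlier results of these data known. Some genes are not reported here.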

Additional observations from a re-analysis of the deposited data

Results flagged for a closer look

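Within the groups of 4 libraries, 15 of 278 sets of values (5.40%) had 1 library apart from the other 3 by Dixon's test, near the 5% that chance gives. Day 4 replicate 1 was high for the alpha-defensin genes Defa20 (38008 normalized reads, the others 333 to 3371) and Defa22 (20149, the others 173 to 2595) and for the ileal bile acid carrier Fabp6 (8245, the others 59.4 to 332). It was also high for Il1b (3245, the others 2210 to 2378) and Nr1h2 (592, the others 416 to 446). Day 4 replicate 3 was low for H2-DMb1 (325, the others 1350 to 1493) and high for the goblet cell gene Clca1 (9084, the others 994 to 1235). Day 4 replicate 4 was high for Cxcr4 (1511, the others 96.1 to 168) and Cd163 (369, the others 35.7 to 66.2).

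On day 8, replicate 4 was low for Il18 (20.4, the others 201 to 228), Tnf (57.8, the others 198 to 221) and Timd4 (6.80, the others 43.5 to 46.1). Replicate 2 was high for Il10ra (1463, the others 245 to 445) and Mertk (40.5, the others 16.7 to 19.0), and replicate 3 was high for Il6 (56.9, the others 3.37 to 10.8).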

How the results depend on the processing

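Between day 4 and day 8 with all libraries, where edgeR called 0 genes, the fit of 7 groups called 612 and DESeq2 178, and leaving out single libraries gave 0 to 89. Without a filter on low counts 2 genes were called with day 4 of experiment 2 and 7 within experiment 2, where leaving out single libraries gave 0 calls in both, and 15 between the experiments of day 8. Between the experiments of day 4, 851 calls became 1801 in a fit of 8 groups and 1525 without the filter, and ran from 0 to 1431 without single libraries. The interaction with segment ran from 0 to 254 calls. The cause of these moves was not tested. Scaling to mapped reads in place of TMM moved the median log2 fold change of all genes from 0.03 to -0.10 with all libraries, from 0.04 to -0.11 with day 4 of experiment 2 and from 0.01 to -0.09 within experiment 2.

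The sign of some estimates depended on 1 library. Over the fits that left out single libraries, Ly6c2 ran from -0.13 to 2.42 with all libraries, from -1.07 to 1.04 with day 4 of experiment 2 and from -1.78 to 0.40 within experiment 2. With all libraries Il10ra ran from -0.20 to 1.53, Il1b from -0.12 to 0.56 and Insig1 from -0.62 to 0.010, and within experiment 2 Foxd2 ran from -0.30 to 0.22. With day 4 of experiment 2 Il1b ran from -0.19 to 0.49 and was -0.033 in limma. The interaction of H2-Ab1 ran from -0.35 to 0.95, and was -1.34 with the colon day 8 library of experiment 1 and -0.049 without the libraries labelled ileum day 4 of experiment 1. The experiment comparisons on each day, and leaving out single libraries in the interaction, were alternatives chosen after seeing the data. No paired analysis was possible because day 4 and day 8 libraries carry no replicate number that marks a shared animal or sample, and the experiment was used as a block instead. Depth limits genes near 3 reads, 6.40 to 27.65 normalized reads.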
